A study of Homo sapiens with 9 samples.

Results

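The genes of the ubiquitin ligase at the core of Polycomb repressive complex 1 (PRC1) were followed in U2OS, a human osteosarcoma cell line, with and without hairpins directed at BAP1. The rule took the genes RING1, RNF2, BMI1, PCGF1, PCGF2, PCGF3, PCGF5, PCGF6, RYBP and YAF2 and every probe set annotated with 1 of these symbols alone. A probe set is the group of short oligonucleotides on the array that reads 1 transcript or set of transcripts. The rule found 25 probe sets for 8 of the 10 genes, among 41097 probe sets for 19775 genes with a single symbol in the whole table. RNF2 had no probe set under its symbol in the annotation used. The only probe set naming BMI1 also names the readthrough gene COMMD3-BMI1. The expression of neither gene was analysed here, while their promoter windows were searched for motifs.

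The 9 arrays form 3 groups of 3: cells given a control hairpin plasmid by lipid transfection (shControl) and cells given either of 2 hairpin plasmids against BAP1 (shBAP1 #1 and shBAP1 #2). All groups share the U2OS background, puromycin selection and a double thymidine block, which holds cells where G1 meets S phase. Whether the replicates were independent cultures is not given in the labels. The p-values therefore reflect only how these samples vary, which may be technical variation. The level of the targeted BAP1 transcript was not analysed here, so the extent of knockdown is not known from these values. A lower value in such bulk RNA cannot tell fewer expressing cells from less RNA per cell.

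PRC1 attaches a single ubiquitin to histone H2A. RING1 or its paralogue RNF2 carries the catalytic RING finger, and 1 of the PCGF proteins pairs with it and decides which form of the complex is built. BMI1 and PCGF2 can join the canonical complexes that carry CBX and PHC subunits. Variant complexes carry RYBP or YAF2, and PCGF1, PCGF3, PCGF5 and PCGF6 build complexes of this kind. BAP1, a nuclear deubiquitinase and tumour suppressor, removes this ubiquitin from H2A and is known to bind HCF-1 and the transcription factor YY1. The comparison asks whether the RNA of the writers of the mark differs when the eraser is targeted.

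PCGF5 changed most. Probe sets 229194_at and 235331_x_at of this gene fell with both hairpins, by 0.60 to 1.5 log2 units, while a further PCGF5 probe set rose with shBAP1 #1. 1 probe set of PCGF3 and 1 of RYBP rose with both hairpins by no more than 0.41 log2 units. The RING1 probe sets rose with shBAP1 #2, and PCGF6 fell with shBAP1 #1, its change with shBAP1 #2 missing the threshold. PCGF1 passed the test in no comparison. Values are log2 expression after robust multi-array averaging (RMA). Changes are differences of group means with the standard error (SE, n = 3 arrays per group) of a linear model fitted with limma to all 54675 probe sets, and a change was called at a Benjamini-Hochberg adjusted p below 0.05.

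With shBAP1 #1, 7 of the 25 probe sets (28.0%) were called, beside 17.7% of all probe sets. Of these, 3 were higher, beside 8.98% of all, and 4 were lower, beside 8.76%. With shBAP1 #2, 8 (32.0%) were called, beside 24.1% of all, with 6 higher (12.6% of all) and 2 lower (11.5% of all). Between the hairpins 9 (36.0%) differed, beside 25.5% of all, 7 of them higher with shBAP1 #2 (13.0% of all) and 2 lower (12.4% of all). Changed the same way by both were 2 higher (4.02% of all) and 2 lower (3.50% of all), and 0 were called in opposite directions. With 1 probe set per gene, 583 of all 19775 genes were called in opposite directions. The hairpins share their control arrays, so the comparisons with shControl are not independent. The median change of the 25 was 0.02 with shBAP1 #1 and 0.07 with shBAP1 #2, beside 0.01 and 0.02 for all probe sets. The median absolute change was 0.16 and 0.23, beside 0.11 and 0.12. No dim probe sets were removed, so all 25 entered these counts, and 4 of them had a mean under 5.44, the median over all probe sets, and are called dim here. These are 229413_s_at of PCGF3, 229996_s_at of PCGF5, 242719_at of RYBP and 244783_at of YAF2. The shares and medians over all probe sets were not matched to the 25 in level.

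**Figure D1:**
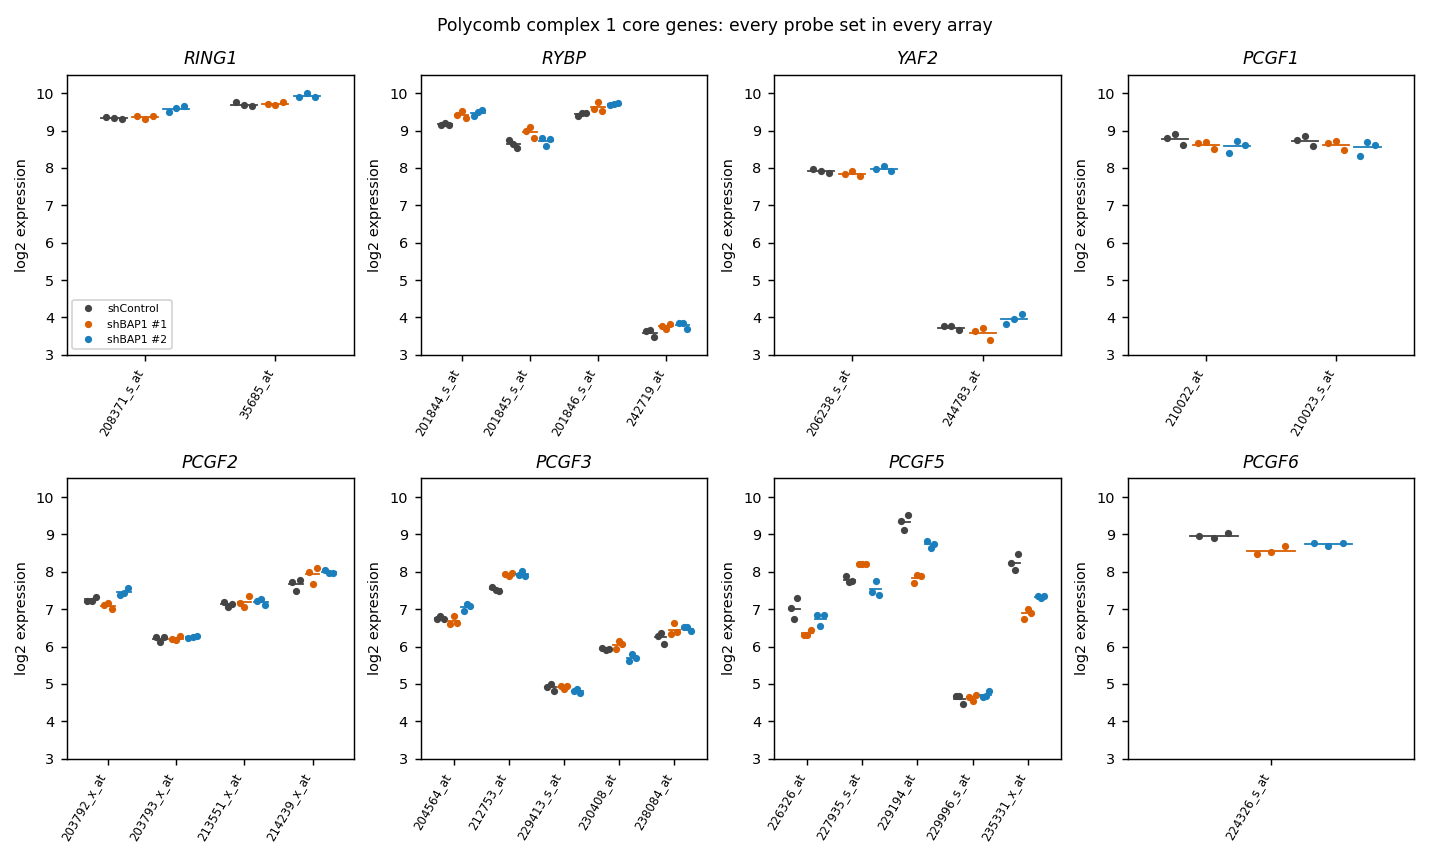
Log2 expression of every probe set of the 8 genes in each of the 9 arrays. Points are arrays, coloured by group, and bars are group means. The PCGF5 probe sets 229194_at and 235331_x_at show the widest separation between groups, with shBAP1 #1 lowest, while 4 probe sets lie below 5.44 in their mean.

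**Figure D2:**
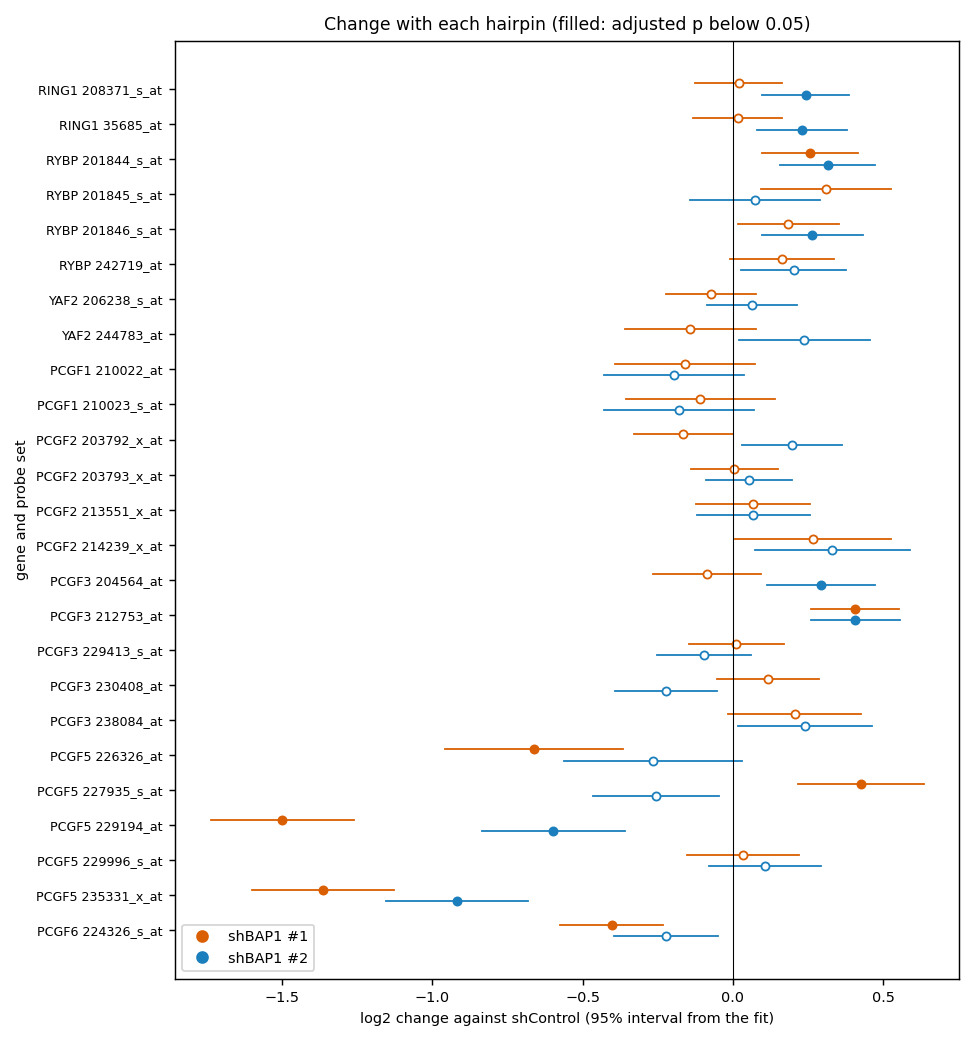
Log2 change against shControl for each probe set, with the 95% interval of the fit. Colours mark the hairpin, and filled points have an adjusted p below 0.05. Changes ran from -1.5 (PCGF5, 229194_at) to 0.43 (PCGF5, 227935_s_at) with shBAP1 #1.

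RING1, the catalytic subunit that could be measured, has 2 probe sets, which moved together. For 208371_s_at the controls read 9.37, 9.34 and 9.32, the shBAP1 #1 arrays 9.38, 9.32 and 9.38, and the shBAP1 #2 arrays 9.50, 9.60 and 9.66. All 3 shBAP1 #2 arrays lay above the other 6, which overlapped. RING1 was 0.24 ± 0.07 (SE) higher with shBAP1 #2 than in the controls (adjusted p = 0.0202) and 0.22 ± 0.07 higher than with shBAP1 #1 (adjusted p = 0.0283). For 35685_at the same differences were 0.23 and 0.21 (adjusted p = 0.0293 and 0.0382). With shBAP1 #1 the changes of 208371_s_at and 35685_at were 0.02 each, with 95% intervals of -0.13 to 0.16. The RING1 calls depended on single arrays and on the fit. Those against shControl were lost without shControl replicate 2 or 3 or shBAP1 #2 replicate 2 or 3, at adjusted p up to 0.078 for 208371_s_at (0.21 without shBAP1 #2 replicate 3) and 0.106 for 35685_at (0.19 without shBAP1 #2 replicate 2). Those against shBAP1 #1 were lost for both probe sets without shBAP1 #1 replicate 1 or 2 or shBAP1 #2 replicate 2 or 3. They were also lost without shBAP1 #1 replicate 3 for 208371_s_at and without shControl replicate 2 for 35685_at, and adjusted p reached 0.131 (0.18 without shBAP1 #2 replicate 2). With only the 2 groups compared in the fit, 35685_at was lost against the controls (adjusted p = 0.0514), and 208371_s_at and 35685_at were lost between the hairpins (0.0548 and 0.0582). After cyclic loess 35685_at was lost between the hairpins (0.20, adjusted p = 0.06003).

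RYBP, a zinc finger protein that takes the place of CBX subunits in variant PRC1 and stimulates the ligase, has 4 probe sets. In 201844_s_at the controls read 9.16, 9.21 and 9.14, the shBAP1 #1 arrays 9.42, 9.52 and 9.34, and the shBAP1 #2 arrays 9.40, 9.50 and 9.55. All 6 shBAP1 arrays lay above all controls. The change was 0.26 ± 0.07 with shBAP1 #1 (adjusted p = 0.0303) and 0.32 ± 0.07 with shBAP1 #2 (adjusted p = 0.00806). 201846_s_at rose with shBAP1 #2 by 0.26 ± 0.08 (adjusted p = 0.0274), and its change of 0.18 with shBAP1 #1 missed the threshold (adjusted p = 0.141). For 201845_s_at the changes were 0.31 (adjusted p = 0.0526) and 0.07 (adjusted p = 0.675), and for the dim 242719_at 0.16 and 0.20 (adjusted p = 0.213 and 0.0936). All 4 RYBP probe sets thus had positive changes with both hairpins, and the mean of the 4 gave 0.23 and 0.21 (adjusted p = 0.0135 and 0.0142 in a fit of gene means). The shBAP1 #1 call of 201844_s_at was lost without shControl replicate 1, 2 or 3 or shBAP1 #1 replicate 1 or 2, at up to 0.116 with a change of 0.21 without shBAP1 #1 replicate 2. With shBAP1 #1, 201845_s_at was called with dim probe sets left out (adjusted p = 0.0350), with only probe sets of 1 symbol (0.0441) and with a trended, robust prior (0.0481). Without shBAP1 #1 replicate 3, it was called with shBAP1 #1 (0.39, adjusted p = 0.0196) and between the hairpins (-0.32, adjusted p = 0.0384). The call of 201846_s_at was lost without shControl replicate 1 or 2 or shBAP1 #2 replicate 2 or 3, at up to 0.1002 with a change of 0.24 without shControl replicate 1.

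YAF2, the paralogue of RYBP, was not called against the controls. Its brighter probe set, 206238_s_at, read 7.97, 7.91 and 7.87 in the controls, 7.83, 7.91 and 7.79 with shBAP1 #1, and 7.97, 8.05 and 7.93 with shBAP1 #2. The shBAP1 #2 arrays lay above the shBAP1 #1 arrays and overlapped the controls. The changes against shControl were -0.07 (95% interval -0.22 to 0.08) and 0.06 (-0.09 to 0.21). The dim probe set 244783_at changed by -0.14 and 0.24 against shControl (adjusted p = 0.427 and 0.116), with all shBAP1 #2 arrays above the controls. In the fit of gene means YAF2 was called between the hairpins (0.26, adjusted p = 0.0139). 244783_at was 0.38 ± 0.10 higher with shBAP1 #2 than with shBAP1 #1 (adjusted p = 0.015). That call was lost without shBAP1 #1 replicate 3 (0.28, adjusted p = 0.0501) or shBAP1 #2 replicate 3 (0.31, adjusted p = 0.0656).

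PCGF5 builds a variant complex, PRC1.5, together with AUTS2 and casein kinase 2, and has 5 probe sets that did not move together. In 229194_at the controls read 9.36, 9.13 and 9.53, the shBAP1 #1 arrays 7.70, 7.92 and 7.90, and the shBAP1 #2 arrays 8.84, 8.65 and 8.74. The 3 groups did not overlap, with shBAP1 #1 lowest. This probe set fell by 1.5 ± 0.11 with shBAP1 #1 (2.83-fold, adjusted p = 1.8e-05) and by 0.60 ± 0.11 with shBAP1 #2 (1.51-fold, adjusted p = 0.00205). In 235331_x_at the controls read 8.23, 8.05 and 8.47, the shBAP1 #1 arrays 6.74, 7.005 and 6.91, and the shBAP1 #2 arrays 7.34, 7.29 and 7.36. The order was the same and again without overlap. The fall was 1.36 ± 0.11 (2.57-fold, adjusted p = 2.6e-05) and 0.92 ± 0.11 (1.89-fold, adjusted p = 0.000153). The hairpins differed by 0.90 for 229194_at (adjusted p = 0.000126) and by 0.45 for 235331_x_at (adjusted p = 0.00999). The suffix of 235331_x_at marks probes that can match unrelated transcripts.

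A further PCGF5 probe set, 226326_at, read 7.02, 6.73 and 7.29 in the controls, 6.31, 6.30 and 6.43 with shBAP1 #1, and 6.84, 6.55 and 6.84 with shBAP1 #2. It fell by 0.66 ± 0.13 with shBAP1 #1 (adjusted p = 0.00537). With shBAP1 #2 its change was -0.27 (adjusted p = 0.199) and the arrays overlapped the controls, while without shControl replicate 2 it was -0.41 (adjusted p = 0.036). The difference between the hairpins, 0.40 (adjusted p = 0.0517), was called without shControl replicate 2 or 3 or shBAP1 #2 replicate 2 (at most 0.49). It was also called with dim probe sets left out (adjusted p = 0.0364), with only probe sets of 1 symbol (0.0433) and with only the 2 groups compared (0.0212). In contrast, 227935_s_at read 7.88, 7.73 and 7.75 in the controls, 8.21, 8.21 and 8.22 with shBAP1 #1, and 7.47, 7.75 and 7.38 with shBAP1 #2. It rose by 0.43 ± 0.09 with shBAP1 #1 (adjusted p = 0.00942), where the other 3 bright probe sets of PCGF5 fell. With shBAP1 #2 its change was -0.26 (adjusted p = 0.0779), and without shBAP1 #2 replicate 2, the array nearest to the controls, it was -0.37 (adjusted p = 0.00904). The hairpins differed by -0.68 ± 0.09 here (adjusted p = 0.000338). The suffix of 227935_s_at marks probes shared between transcripts. The dim 229996_s_at changed by 0.03 and 0.11 and was not called. The mean of the 5 probe sets, which mixes these patterns, gave -0.61 and -0.39 (adjusted p = 0.000133 and 0.00146). The calls of PCGF5 given here against the controls held in each of the 9 fits that left out 1 array.

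**Figure D3:**
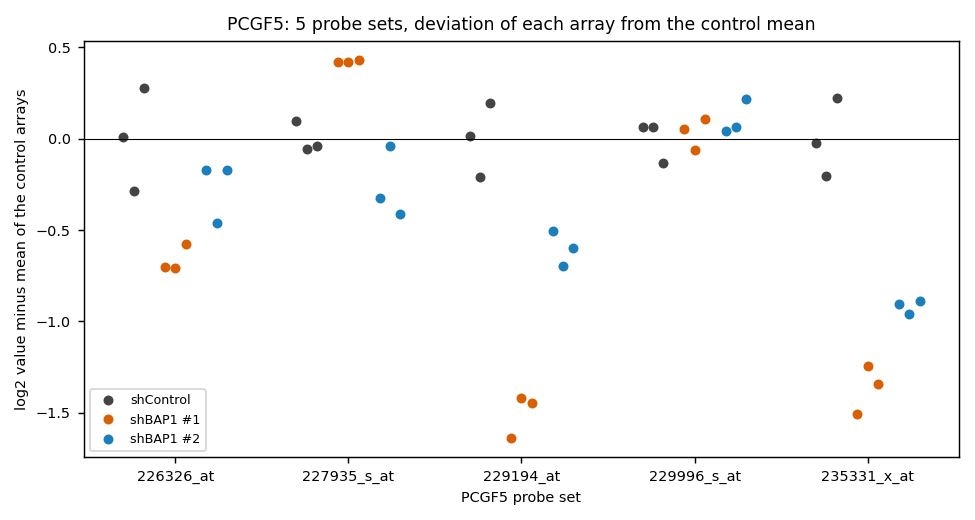
The 5 PCGF5 probe sets, each array given as its log2 value minus the mean of the 3 control arrays. In 229194_at and 235331_x_at all shBAP1 arrays lie below the controls. In 227935_s_at the shBAP1 #1 arrays lie together above them, at a mean of 0.43.

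PCGF5 has several annotated starts, which is why its promoters are shown. RefSeq (GRCh38.p14) lists 4 start windows for it, 57670 bases apart from the first start to the last, each running from 250 bases before to 50 bases after a start. The files give no position for the probes, so no probe set can be tied to a start. 3 windows on the plus strand are given here 5′ to 3′, at chr10:91162743-91163042, chr10:91219901-91220200 and chr10:91220413-91220712. The fourth overlaps the first. Bases in capitals would mark a motif match, and these windows hold none. The first and last are rich in G and C (81% and 74.7%), the middle one is not (42%).
PCGF5 upstream start: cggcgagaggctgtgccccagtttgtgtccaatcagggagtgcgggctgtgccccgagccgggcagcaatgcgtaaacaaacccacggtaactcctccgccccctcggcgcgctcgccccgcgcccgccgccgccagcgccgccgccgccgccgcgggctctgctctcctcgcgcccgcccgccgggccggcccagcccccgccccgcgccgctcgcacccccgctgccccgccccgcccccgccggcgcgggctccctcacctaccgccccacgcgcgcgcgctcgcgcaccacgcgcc
PCGF5 middle start: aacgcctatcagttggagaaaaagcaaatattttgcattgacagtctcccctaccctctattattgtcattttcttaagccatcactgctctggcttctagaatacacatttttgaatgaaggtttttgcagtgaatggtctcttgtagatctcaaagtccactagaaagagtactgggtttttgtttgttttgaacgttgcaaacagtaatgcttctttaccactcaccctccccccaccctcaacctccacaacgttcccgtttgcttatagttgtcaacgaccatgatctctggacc
PCGF5 downstream start: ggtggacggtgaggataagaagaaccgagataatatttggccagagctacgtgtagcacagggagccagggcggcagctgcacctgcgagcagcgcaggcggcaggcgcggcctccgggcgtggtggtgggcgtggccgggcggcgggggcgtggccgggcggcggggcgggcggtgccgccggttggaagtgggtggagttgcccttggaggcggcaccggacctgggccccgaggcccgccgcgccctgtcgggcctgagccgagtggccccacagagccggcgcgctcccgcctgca

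The windows of all 10 genes, 14 in number, were searched on both strands for a core of the YY1 motif (CCATNTT), an E2F core (TTTNNCGC) and the E-box read by MAX and its partners (CACGTG). The YY1 core occurred in 3 of the 14, beside 15.6% of 35116 RefSeq windows of 300 bases. These were RNF2, BMI1 and PCGF1. The E-box occurred in 2, those of BMI1 and YAF2, beside 7.26%, and the E2F core in 0, beside 6.89%. The 3 motifs do not overlap in these windows. A match is a description of the letters, not a site. PCGF1 is shown as the 1 gene with both measured values and a YY1 core. Its window lies at chr2:74507646-74507945 on the minus strand. The match, in capitals, is on the opposite strand and begins at base 25, counting the start as base 1.
PCGF1 start: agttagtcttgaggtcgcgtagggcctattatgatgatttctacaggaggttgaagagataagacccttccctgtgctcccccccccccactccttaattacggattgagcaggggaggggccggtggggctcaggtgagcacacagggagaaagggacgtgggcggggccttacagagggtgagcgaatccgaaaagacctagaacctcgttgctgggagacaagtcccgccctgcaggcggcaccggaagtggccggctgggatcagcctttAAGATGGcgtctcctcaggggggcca

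PCGF1, the subunit of the BCOR complex PRC1.1, was not called in any comparison. Probe set 210022_at read 8.81, 8.91 and 8.61 in the controls, 8.66, 8.69 and 8.50 with shBAP1 #1, and 8.40, 8.72 and 8.63 with shBAP1 #2. The 3 groups overlapped. Changes were -0.16 (95% interval -0.39 to 0.07) and -0.19 (-0.43 to 0.04), so the intervals reach -0.43. The second PCGF1 probe set, 210023_s_at, designed to the same transcript record, changed by -0.11 and -0.18.

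PCGF3 builds the variant complex most like that of PCGF5. In 212753_at the controls read 7.61, 7.5 and 7.5, the shBAP1 #1 arrays 7.95, 7.90 and 7.97, and the shBAP1 #2 arrays 7.92, 8.01 and 7.90. All 6 shBAP1 arrays lay above the controls, and the hairpins overlapped. PCGF3 rose here by 0.41 ± 0.07 with each hairpin (adjusted p = 0.00155 and 0.00111), a call kept in every fit that left out 1 array. The other 4 PCGF3 probe sets were not called with shBAP1 #1 (changes of -0.09 to 0.21), and the mean of the 5 was not called with either hairpin (0.13 and 0.12, adjusted p = 0.151 and 0.143). Probe set 238084_at changed by 0.21 and 0.24 (adjusted p = 0.223 and 0.119), with all shBAP1 #2 arrays above the controls, and the dim 229413_s_at by 0.01 and -0.10. With shBAP1 #2, 204564_at rose by 0.29 ± 0.08 (adjusted p = 0.0223), while 230408_at changed by -0.22 (adjusted p = 0.059). Both differed between the hairpins, in opposite directions (0.38 and -0.34, adjusted p = 0.00508 and 0.00683). The shBAP1 #2 call of 204564_at was lost without shControl replicate 1 or 3 or shBAP1 #2 replicate 2 or 3, at up to 0.0872 with a change of 0.25 without shBAP1 #2 replicate 2. The change of 230408_at was called after cyclic loess (-0.24, adjusted p = 0.0393), after centring on the median (adjusted p = 0.0484), with dim probe sets left out (adjusted p = 0.0383) and without shBAP1 #1 replicate 1 (adjusted p = 0.0482).

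PCGF6, the subunit of the germline gene repressor PRC1.6, is read by 1 probe set, 224326_s_at. The controls read 8.97, 8.89 and 9.05, the shBAP1 #1 arrays 8.48, 8.52 and 8.70, and the shBAP1 #2 arrays 8.78, 8.69 and 8.77. All 6 shBAP1 arrays lay below the controls, and the hairpins overlapped at 1 array. PCGF6 fell by 0.40 ± 0.08 with shBAP1 #1 (adjusted p = 0.00422). The change with shBAP1 #2 was -0.22 ± 0.08 (adjusted p = 0.0652), the difference between the hairpins was 0.18 (adjusted p = 0.124), and without shBAP1 #1 replicate 3 both were called (adjusted p = 0.0453 and 0.0459). The change with shBAP1 #2 was also called after cyclic loess (-0.24, adjusted p = 0.0476), with dim probe sets left out (0.0425), with 1 probe set per gene (0.0471) and in the fit of gene means (0.0348).

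PCGF2, also called MEL-18, pairs with RING1 in canonical PRC1 and is read by 4 probe sets whose suffix marks probes that can match unrelated transcripts. None was called against the controls. 203792_x_at read 7.23, 7.23 and 7.33 in the controls, 7.12, 7.17 and 7.01 with shBAP1 #1, and 7.38, 7.44 and 7.56 with shBAP1 #2. The groups did not overlap, the controls lying between the hairpins. The hairpins differed by 0.36 ± 0.07 (adjusted p = 0.00427), with changes against shControl of -0.16 and 0.20 (adjusted p = 0.187 and 0.0878). 214239_x_at changed by 0.27 and 0.33 (adjusted p = 0.168 and 0.0659). It was called with shBAP1 #1 (0.39, adjusted p = 0.0291) and with shBAP1 #2 (adjusted p = 0.0255) without shBAP1 #1 replicate 2. With shBAP1 #2 it was also called with dim probe sets left out (adjusted p = 0.0453), with 1 probe set per gene (0.0497) and with only the 2 groups compared (0.0346). The changes of 203793_x_at and 213551_x_at were between 0.00 and 0.07.

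Profiles across the 9 arrays most like that of PCGF5 235331_x_at, the probe set with the largest change shared by both hairpins, were found among 12747 genes at or above the median level. The measure was the root-mean-square difference of the array values, each taken relative to its own control mean. The 5 nearest were CHEK1, a checkpoint kinase (0.145), LMBR1 (0.174), the elongation factor gene EEF1A2 (0.174), SEPTIN10 (0.175) and THAP5 (0.187), beside a median of 0.979 over all genes compared. CHEK1 changed by -1.38 and -0.96. By the same measure 229194_at of PCGF5 stood at 0.205, 226326_at at 0.562 and 227935_s_at at 1.11.

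The partners of these subunits were read through the brightest probe set of each gene, in 7 lists. Of 52 genes, 49 were measured. With shBAP1 #1, 7 were higher and 15 lower, beside 11.9% and 11.5% of all 19775 genes. With shBAP1 #2, 6 were higher and 17 lower, beside 15.8% and 15.5%. The same way by both were 2 higher and 6 lower, beside 5.56% and 4.85% of all genes. These shares were not matched to the partners in level. In the list of PRC1.1 partners, 1 of 5 fell with both, the corepressor BCOR (-0.57 and -0.49, adjusted p = 0.00327 and 0.00574). With shBAP1 #1, 0 of these 5 were higher and 2 lower, and with shBAP1 #2, 1 was higher and 3 lower. Of the 6 partners of PCGF3 and PCGF5, 0 were higher and 2 lower with shBAP1 #1, 2 were higher and 0 lower with shBAP1 #2, and 0 changed the same way with both. CSNK2A2, a catalytic subunit of casein kinase 2, fell by 0.70 with shBAP1 #1 (adjusted p = 0.000467) and changed by -0.23 with shBAP1 #2 (adjusted p = 0.12).

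Among 10 PRC1.6 partners, TFDP1, which pairs with E2F factors, rose with both (0.56 and 0.35) and MGA, the scaffold that pairs with MAX, fell with both (-0.31 and -0.48). In this list 4 were higher and 3 lower with shBAP1 #1, and 1 was higher and 3 lower with shBAP1 #2. A single member was called in opposite directions, E2F6, a repressive E2F, at 0.41 with shBAP1 #1 and -0.60 with shBAP1 #2. It was named here after its values were seen. Of all 19775 genes, 583 were called in opposite directions. Of 9 measured canonical partners 1 rose with both, CBX6, a chromodomain subunit (0.42 and 0.61), with 2 higher and 3 lower for shBAP1 #1 and 1 higher and 2 lower for shBAP1 #2. Of 8 measured H2A deubiquitinases and cofactors 1 fell with both, BRCC3 (-0.55 and -0.34), whose probe set can match unrelated transcripts, and this was the 1 called of the 8 with shBAP1 #1, while 3 were lower with shBAP1 #2. Of 5 readers of ubiquitinated H2A 1 fell with both, AEBP2, an accessory subunit of Polycomb complex 2 (-0.50 and -0.51), with 1 higher and 1 lower for shBAP1 #1 and 0 higher and 3 lower for shBAP1 #2. In the Polycomb complex 2 core 2 of 6 fell with both, SUZ12 (-0.82 and -0.84) and EED (-0.55 and -0.81), and EED has another probe set called higher with shBAP1 #1. Of these 6, 0 were higher and 3 lower with shBAP1 #1, and 1 was higher and 3 lower with shBAP1 #2. The list medians with shBAP1 #1 ran from -0.26 (Polycomb complex 2 core) to 0.21 (canonical partners), and with shBAP1 #2 from -0.46 (Polycomb complex 2 core) to 0.06 (partners of PCGF3 and PCGF5), beside 0.01 and 0.02 for all genes.

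**Figure D4:**
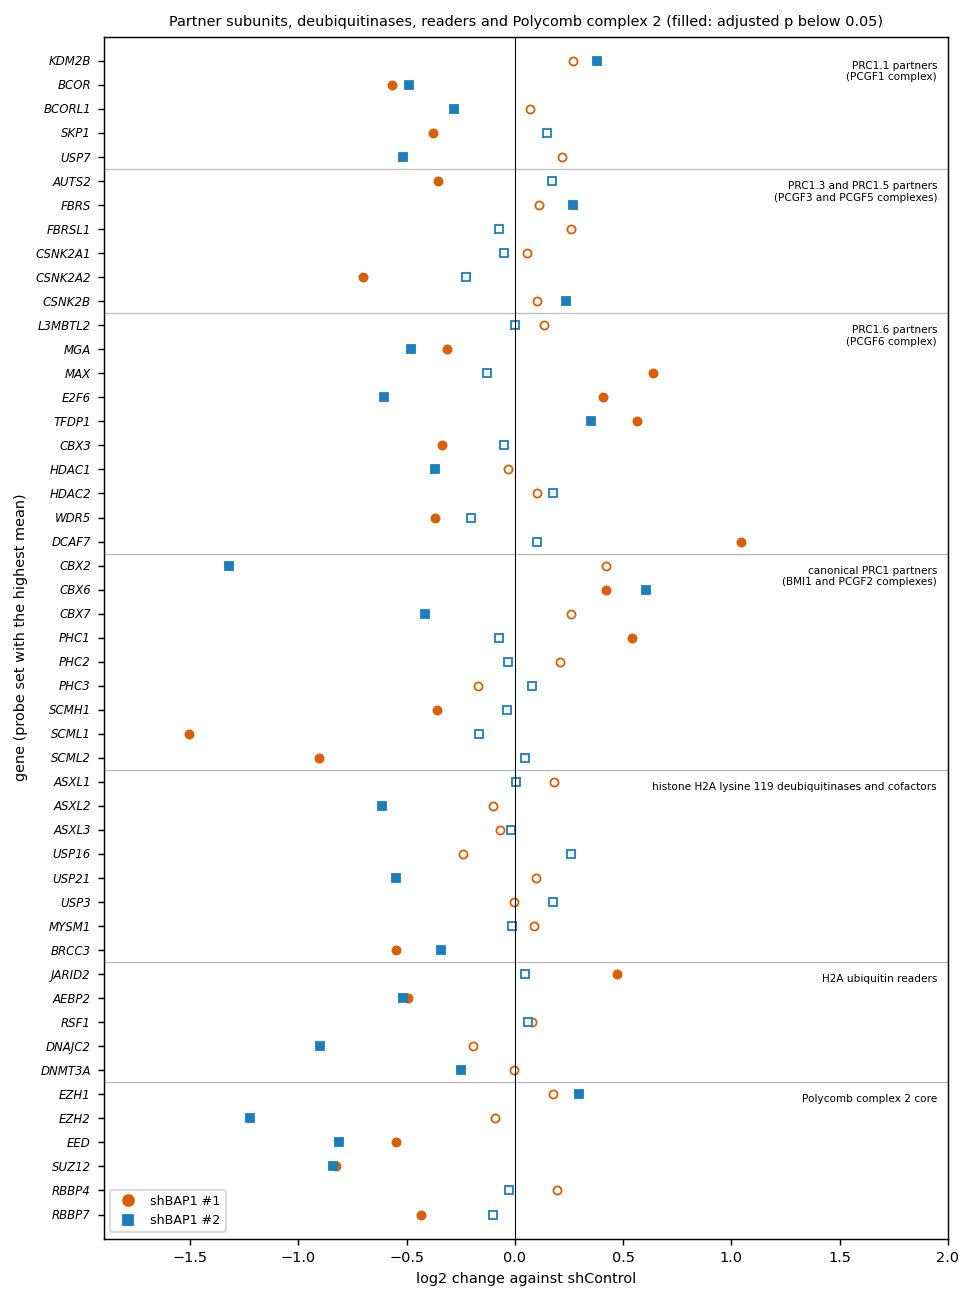
Log2 change against shControl for 49 partner genes in 7 lists, circles for shBAP1 #1 and squares for shBAP1 #2, filled where the adjusted p is below 0.05. BCOR, MGA, BRCC3, AEBP2, EED and SUZ12 are filled on the negative side for both hairpins, and TFDP1 and CBX6 on the positive side.

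Array medians lay between 5.40 and 5.45, arrays of 1 group correlated at 0.995 to 0.997 and arrays of different groups at 0.977 to 0.990. Of 7 mesenchymal and bone markers 5 were at or above the median level, with VIM at 14.1 and SPARC at 12.7 in the mean, and COL1A2 and ALPL below it. Their summed levels were 63.7 to 64.3 in shControl, 68.3 to 69.2 in shBAP1 #1 and 65.0 to 65.7 in shBAP1 #2. Of these 7, 1 rose with both hairpins, FN1 (1.81 and 0.25), whose probe set can match unrelated transcripts. FN1 has another probe set called lower with shBAP1 #2. With shBAP1 #2 the largest change was that of ALPL (1.18), and the rest ran from -0.11 (VIM) to 0.25 (FN1). The 3 measured leukocyte markers lay below the median. Of 4 epithelial markers 3 were at or above the median level, with KRT18 at 12.5 in the mean. The 3 that fell with both hairpins were EPCAM, KRT8 and KRT18, and the probe sets of KRT8 and KRT18 can match unrelated transcripts. The summed levels of the 4 were 33.7 to 34.3 in shControl, 32.1 to 32.2 in shBAP1 #1 and 31.0 to 31.8 in shBAP1 #2. Of 3 endothelial markers 1 was at or above the median level, PECAM1, and it fell with both. The summed levels of the 3 were 17.0 to 17.2, 15.9 to 16.2 and 16.2 to 16.4. Actin read at its 3' end exceeded actin read at its 5' end, a gap that widens as RNA degrades. The gap was 0.47 to 0.51 in shControl, 0.39 to 0.41 in shBAP1 #1 and 0.39 to 0.46 in shBAP1 #2. For GAPDH the same gap was -0.06 to -0.02 in shControl, -0.05 to -0.03 in shBAP1 #1 and -0.04 to -0.03 in shBAP1 #2. These GAPDH ranges overlap. The summed mesenchymal, epithelial and endothelial levels and the actin gap separate the controls from both hairpins, while the GAPDH gap does not. PCGF5 229194_at and 235331_x_at, PCGF3 212753_at, RYBP 201844_s_at and PCGF6 224326_s_at, among others, also separate them. The part of the marker and actin values in those changes was not tested.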

How the data were processed

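The deposited table holds 1 log2 value per probe set and array, made by the authors with RMA according to the submitters' processing notes (version not given in the sources used here). RMA corrects background, gives every array the same distribution and summarises the probes, so a shift common to all transcripts cannot be seen and small signals show compressed changes. Gene symbols came from the platform's annotation table: 41097 had 1 symbol, 1801 several, and 11777 were unlisted. Only probe sets with 1 symbol were named.

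Linear models were fitted to all 54675 probe sets over the 9 arrays by lmFit and eBayes (limma 3.58.1, R 4.3.3), without covariates and two-sided, with 6 residual and 4.36 prior degrees of freedom, and p-values were Benjamini-Hochberg adjusted over all probe sets. No fold minimum or filter on dim values was used. The number of arrays limits the precision. No 2 arrays held identical values.

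The scripts were tested on simulated data drawn around the measured means. There, 45% of 100 probe sets given a change of 0.5 were recovered for shBAP1 #1 and 44% for shBAP1 #2. Of those given 1, 97% and 94% were recovered. False calls made up 2.07% and 1.43% of calls. The simulation held fewer changes than the data: 145 and 140 probe sets were called in it, beside 9704 and 13171 in the data. The adjusted p depends on how many probe sets change, so these rates need not hold for the data.

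Every probe set of the 8 genes is named. Partner lists are counted by the brightest probe set of each gene. By name they give up to 3 members changed the same way by both hairpins, or the 1 with the smallest p. The likeness rule is stated beside its result. The members, lists and rules were chosen with earlier results of these data known. Promoter windows for all 10 genes came from RefSeq, GRCh38.p14. Alternatives covered normalization, dim probe sets, the family of tests, gene summaries, the variance prior, the arrays fitted, the replicate number, a fold minimum and each array left out. Deviations of same-numbered arrays from their group means correlated at 0.187, 0.127 and 0.302 for the 3 pairs of shControl and shBAP1 #1. However, shControl replicate 2 correlated more with shBAP1 #1 replicate 1 (0.148). Over all groups, differently numbered arrays reached 0.191. The labels state no pairing and these values do not settle it, so the main fit used no pairing. Plots used Python 3.11.15 and matplotlib 3.10.9.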

Additional observations from a re-analysis of the deposited data

Results flagged for a closer look

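The effects of the hairpins differed, by the fitted difference of shBAP1 #2 minus shBAP1 #1 in limma, for 9 of the 25 probe sets. In PCGF5 the log2 difference was 0.90 for 229194_at, 0.45 for 235331_x_at and -0.68 for 227935_s_at. In PCGF3 it was 0.38 for 204564_at and -0.34 for 230408_at. In RING1 it was 0.22 for 208371_s_at and 0.21 for 35685_at, in PCGF2 0.36 for 203792_x_at, and in YAF2 0.38 for 244783_at. The share of all probe sets that differ between the hairpins is 25.5%, so 9 of 25 is described and not set apart.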

How the results depend on the processing

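The count of called probe sets with shBAP1 #1 (7) was 3 genes with 1 probe set per gene, 3 genes with the mean of the probe sets of a gene, and 3 with at least a 1.5-fold change. With shBAP1 #2 (8) the last 2 settings gave 4 and 2. The count between the hairpins (9) was 2 with 1 probe set per gene, 3 with the gene means and 2 with the fold minimum. The count changed the same way by both (4) was 2 with the fold minimum. The gene settings count fewer units by construction. Leaving out 1 array gave 4 to 9 with shBAP1 #2, with 5 without shControl replicate 3, 5 without shBAP1 #2 replicate 2 and 4 without shBAP1 #2 replicate 3. Of 24 calls of single probe sets, 14 held in all 18 settings other than the fold minimum in which they could be fitted, 8 were lost in at least 1 of 9 fits without 1 array, and 0 changed sign.

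With the replicate block the counts were 7, 8, 8 and 4. Of single calls, RING1 35685_at with shBAP1 #2 (adjusted p = 0.0555) and RING1 208371_s_at and 35685_at between the hairpins (0.0516 and 0.0688) were lost. PCGF2 214239_x_at with shBAP1 #2 (0.0268) and PCGF5 226326_at between the hairpins (0.013) were gained. The block changed no call of shBAP1 #1 against shControl. For the comparisons with shBAP1 #2, not every same-numbered pair correlated above 0.1, so a shared number was not taken as a pairing there either. The pair of replicate 3 stood at -0.07 with shControl and -0.17 with shBAP1 #1. The small values of 4 dim probe sets limit what they can show.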
